A study of Mus musculus with 6 samples.

Results

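The Kruppel-like factors Klf2, Klf4, Klf6, Klf7, Klf9, Klf10 and Klf15 and the CCAAT/enhancer-binding proteins Cebpa, Cebpb and Cebpd were described in the right hippocampus of mice after transient middle cerebral artery occlusion. The members were the rows of the table of all genes whose gene name was one of these 10, and each name had 1 row, giving 10 of 53465 genes (7 Kruppel-like factors and 3 C/EBP genes). All 10 passed the filter on low values and stood among the 17561 genes tested.

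Kruppel-like factors are zinc finger proteins that bind GC-rich and CACCC sequences, and the family includes activators and repressors of transcription. Klf2 and Klf4 are best known from endothelial cells, where laminar flow induces them, Klf9 and Klf15 from the response to glucocorticoids, Klf10 from the early response to TGF-beta, and Klf7 from neurons and axon growth. C/EBP proteins are leucine zipper factors that pair with each other: Cebpa is known for myeloid and fat cell differentiation, and Cebpb and Cebpd are induced by cytokines and drive acute phase genes.

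The samples were 3 Sham and 3 tMCAO libraries from male C57BL/6J mice, with no age in the labels. In tMCAO, a filament in the right internal carotid artery closed the middle cerebral artery for 50 min and was then withdrawn, and all mice were perfused with saline before the right hippocampus was taken. Sham is given as a label with no description of the operation. The labels give neither the interval from occlusion to collection nor whether a library holds 1 animal or a pool. The series title concerns exercise and microglial receptors, but the labels of these groups differ only by the occlusion.

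Gene positions are those of GENCODE M21 on mm10. Levels are FPKM, reads scaled by exon length and by library, as deposited. The reads that could be recovered from the FPKM came to 35341820 to 41942987 per library in Sham and 52307220 to 60000991 in tMCAO. Every tMCAO library was thus deeper than any Sham library, and read totals given below are not scaled for depth. In the labelled tissue, the summed FPKM of 10 hippocampal neuron markers lay between 112 and 142 in Sham and between 143 and 150.2 in tMCAO, but not all markers were alike. The dentate gyrus marker C1ql2 was at 0.751 FPKM in Sham 2 and 0.725 FPKM in tMCAO 3 against 6.54 to 14.8 FPKM in the other libraries, and the CA1 marker Fibcd1 at 2.93 and 1.996 FPKM against 7.78 to 8.68 FPKM. The same 2 libraries stood apart in other markers: their summed striatal neuron markers were 624 and 524 against 73.8 to 150 in the other libraries, and their summed choroid plexus markers 24.8 and 9.90 against 353 to 729. The calls below were therefore also computed without these 2 libraries.

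Of the 10 members, 7 were higher in tMCAO, 1 was lower and 2 did not pass the test. The test was limma on log2(FPKM + 1) with Benjamini-Hochberg adjustment over all 17561 genes and a threshold of 0.05. In the background 16.2% of tested genes passed, 8.93% higher and 7.28% lower. The members were chosen with earlier results of these data known, so their count against this background is a description only. The FPKM of the 2 groups did not overlap in 8 of the 10 members, against 43.4% of tested genes. An exact two-sided permutation test of 3 against 3 libraries cannot go below p = 0.10, which is what those 8 members reached. Since no label says that each library is its own animal, p-values cover only the spread between these samples. Without Sham 2 and tMCAO 3, 5 of the 10 members passed (Klf4, Klf6, Cebpa, Cebpb and Cebpd).

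**Figure D1:**
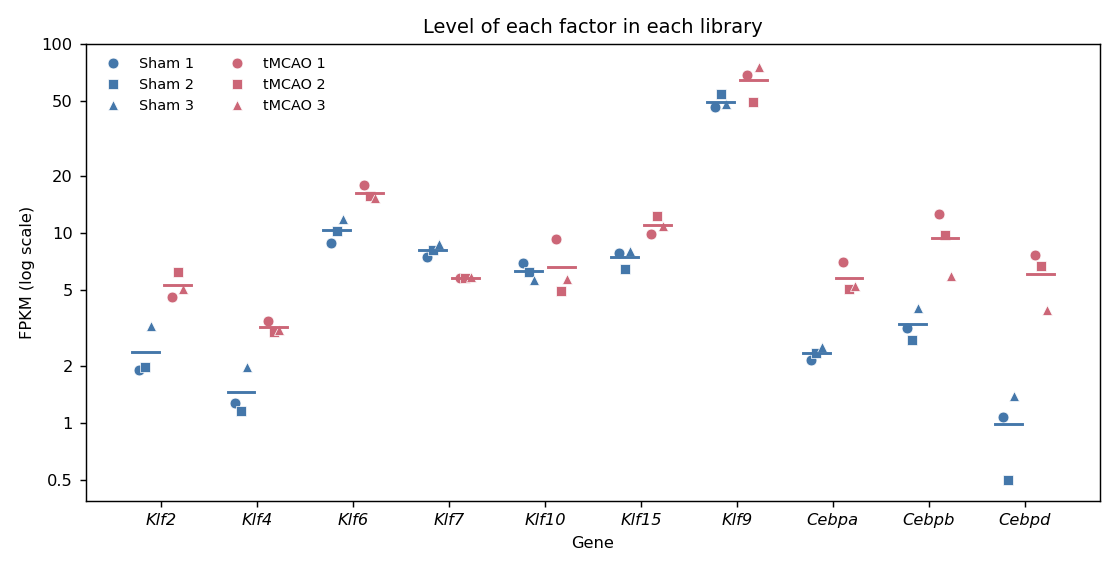
FPKM of each of the 10 factors (log axis) in each library, Sham in blue and tMCAO in red, with symbols for the library numbers and bars at the group means (n = 3). The groups overlap in Klf9 and Klf10 and are apart in the other 8 genes, with Klf7 alone lower in tMCAO.

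The promoters of 4 of the factors that rose are printed first, since the sequence just upstream of a start site is where several of these genes are known to be controlled. RefSeq windows of 300 bases, from 250 before to 50 after the annotated start, on GRCm38.p6, were at hand for 8 of the 10 members, all but Klf10 and Cebpd. Capitals mark TGACG on either strand (read as CGTCA on the printed strand when reversed), the core of the cAMP response element. They also mark TATAAA, the letters of a TATA box, wherever they stand in the window. The windows are Cebpb chr2:167688665-167688964 on the plus strand, Cebpa chr7:35119043-35119342 on the plus strand, Klf2 chr8:72318812-72319111 on the plus strand and Klf4 chr4:55532426-55532725 on the minus strand, each printed 5′ to 3′ along its gene.
Cebpb: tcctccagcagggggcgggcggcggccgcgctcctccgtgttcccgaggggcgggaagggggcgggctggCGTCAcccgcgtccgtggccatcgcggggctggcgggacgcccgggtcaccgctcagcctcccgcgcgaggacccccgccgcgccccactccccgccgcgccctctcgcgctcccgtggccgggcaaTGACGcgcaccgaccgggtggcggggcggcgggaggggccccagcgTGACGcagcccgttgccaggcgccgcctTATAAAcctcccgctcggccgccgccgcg
Cebpa: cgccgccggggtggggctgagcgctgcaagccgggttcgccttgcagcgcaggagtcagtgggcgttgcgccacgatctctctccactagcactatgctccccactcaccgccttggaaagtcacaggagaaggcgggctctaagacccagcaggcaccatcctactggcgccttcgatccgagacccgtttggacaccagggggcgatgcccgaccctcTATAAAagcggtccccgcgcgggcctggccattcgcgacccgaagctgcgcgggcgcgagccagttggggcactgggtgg
Klf2: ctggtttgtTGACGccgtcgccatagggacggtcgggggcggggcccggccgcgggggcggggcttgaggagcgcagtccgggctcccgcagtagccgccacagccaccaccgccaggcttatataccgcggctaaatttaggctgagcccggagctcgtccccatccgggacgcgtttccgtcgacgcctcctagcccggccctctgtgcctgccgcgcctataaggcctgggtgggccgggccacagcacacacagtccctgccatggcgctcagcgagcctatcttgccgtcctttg
Klf4: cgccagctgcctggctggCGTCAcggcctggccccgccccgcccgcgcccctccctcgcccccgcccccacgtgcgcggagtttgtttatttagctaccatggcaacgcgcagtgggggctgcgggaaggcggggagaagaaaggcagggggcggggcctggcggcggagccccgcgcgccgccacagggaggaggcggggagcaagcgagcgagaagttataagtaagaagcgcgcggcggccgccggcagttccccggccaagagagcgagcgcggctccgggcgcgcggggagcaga

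TGACG stood in 5 of the 8 windows (Cebpb, Klf2, Klf4, Klf9 and Klf15), against 20.8% of all 32851 RefSeq windows of that length. Cebpb held it 3 times, from -180 to -176, from -53 to -49 and from -7 to -3 relative to the annotated start site. The full palindrome TGACGTCA, which contains TGACG, was in none of the 8 and in 1.8% of all windows. TATAAA was in the windows of Cebpb (22 to 27 after the annotated start) and Cebpa (-30 to -25), against 13.6% of all windows. A TATA box lies upstream of the start it serves, so the Cebpb match is not one for the annotated start. The GC box GGGCGG was in 6 of 8 windows against 35.7%, and CACCC in 6 of 8 against 57.5%; both are letters that Kruppel-like factors bind. The windows ran from 58.3% (Klf7) to 80.7% (Cebpb) GC, against a median of 52.7% over all windows, so GC-rich letters are common in them. CCAAT was in 3 of 8 against 37.4%, TTCNNNGAA, the STAT motif, in 1 (Klf9) against 8.3%. TTGCNNAA, the C/EBP motif, was in none against 10.8%, GGGNNTTCC, an NF-kB motif, in none against 5.8%, the CArG box in none against 1.6% and the glucocorticoid response element in none against 0.5%. Both strands were searched throughout, and the matches describe letters in these windows, not binding.

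The 3 C/EBP factors had the largest fold changes of the 10. Cebpd (ENSMUSG00000071637, chr16:15887286-15891031, plus strand), the family member best known as a fast cytokine target, was at 1.08, 0.498 and 1.39 FPKM in Sham 1, 2 and 3 and at 7.64, 6.72 and 3.94 FPKM in tMCAO 1, 2 and 3. Every tMCAO library was above every Sham library, the lowest of them 2.84 times the highest Sham value. Its mean rose from 0.987 ± 0.451 to 6.10 ± 1.93 FPKM (SD, n = 3), or 1.82 ± 0.25 (SE) in log2 fold change (limma adjusted p = 0.0119), and 0.211% of tested genes had a larger one. Behind it stood 474 reads in Sham and 4048 in tMCAO, not scaled for the greater depth of the tMCAO libraries. The pseudocount of 1 lowers the fold change of a gene this low: with 0.1 it was 2.56, and on the recovered reads 2.67. The call was lost without Sham 1 (1.87, adjusted p = 0.053) and without Sham 3 (1.97, adjusted p = 0.053). In the authors' deposited table the log2 fold change, Sham over tMCAO, was -2.63 (adjusted p 3.1e-13).

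Cebpb (ENSMUSG00000056501, chr2:167688915-167690418, plus strand), which drives acute phase and inflammatory genes, was at 3.15, 2.74 and 4.03 FPKM in Sham 1, 2 and 3 and at 12.7, 9.85 and 5.93 FPKM in tMCAO 1, 2 and 3. The groups did not overlap, and tMCAO 3 was the closest to Sham, with tMCAO 1 at 2.15 times its level. The mean rose from 3.31 ± 0.661 to 9.50 ± 3.42 FPKM (SD, n = 3), or 1.24 ± 0.25 (SE) in log2 fold change (limma adjusted p = 0.0238). Of the 8 members called, Cebpb kept its call in the fewest of the 6 leave-one-out fits, only without tMCAO 3 (1.51, adjusted p = 0.0056). Leaving out Sham 1, 2 or 3 gave adjusted p of 0.087, 0.079 and 0.079, and leaving out tMCAO 1 or 2 gave 0.050 and 0.059, with log2 fold changes from 1.02 to 1.36.

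Cebpa (ENSMUSG00000034957, chr7:35119293-35121928, plus strand), known as a regulator of myeloid lineage choice, was at 2.15, 2.32 and 2.50 FPKM in Sham 1, 2 and 3 and at 7.09, 5.06 and 5.27 FPKM in tMCAO 1, 2 and 3. All 3 tMCAO libraries were at least 2.02 times the highest Sham value. The mean rose from 2.33 ± 0.172 to 5.81 ± 1.12 FPKM (SD, n = 3), or 1.02 ± 0.13 (SE) in log2 fold change, and its limma adjusted p of 0.00987 was the smallest of the 10. The call was lost without Sham 1 (0.98, adjusted p = 0.053) and without Sham 3 (1.06, adjusted p = 0.055).

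The genes of the 3 C/EBP factors are intronless and share exon bases with genes on the opposite strand: 15.0% of Cebpd with Spidr, 20.7% of Cebpb with Tmem189 and 1.9% of Cebpa with Gm45091. Whether counting used strand is not known here, so reads from either strand of a shared stretch cannot be told apart. Spidr went from 0.985 ± 0.197 to 1.37 ± 0.574 FPKM (log2 fold change 0.23, limma adjusted p = 0.42). Tmem189 went from 9.20 ± 0.743 to 11.7 ± 1.73 FPKM (0.31, limma adjusted p = 0.104). Gm45091 rose from 0.744 ± 0.181 to 1.39 ± 0.267 FPKM (0.46, limma adjusted p = 0.0446).

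Among the other C/EBP genes neither of the 2 tested passed in limma or in voom on the recovered reads, while both had an unadjusted p under 0.05. Cebpg, a family member that lacks a transactivation domain, was at 6.49, 6.36 and 6.73 FPKM in Sham and 7.00, 8.63 and 7.68 FPKM in tMCAO (log2 fold change 0.22, limma adjusted p = 0.125). Ddit3, the stress-induced partner also called CHOP, was at 11.2 ± 0.422 FPKM in Sham and 14.7 ± 3.24 FPKM in tMCAO (0.35, limma adjusted p = 0.135). Cebpe, a granulocyte factor, lay under the filter with 1 read in all of Sham and 13 in all of tMCAO.

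The C/EBP pool was larger in every tMCAO library than in any Sham library, and its makeup is given as a description. Cebpa, Cebpb, Cebpd and Cebpg summed to 12.9, 11.9 and 14.7 FPKM in Sham 1, 2 and 3 and to 34.5, 30.3 and 22.8 FPKM in tMCAO 1, 2 and 3. Cebpg made up 49.9% ± 3.72 of that sum in Sham and 27.5% ± 6.74 in tMCAO (SD, n = 3). The share of Cebpd went from 7.33% ± 2.79 to 20.5% ± 2.84, that of Cebpb from 23.0 to 27.5% in Sham to 26.0 to 36.9% in tMCAO, and that of Cebpa from 17.8% ± 1.51 to 20.1% ± 3.21.

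**Figure D2:**
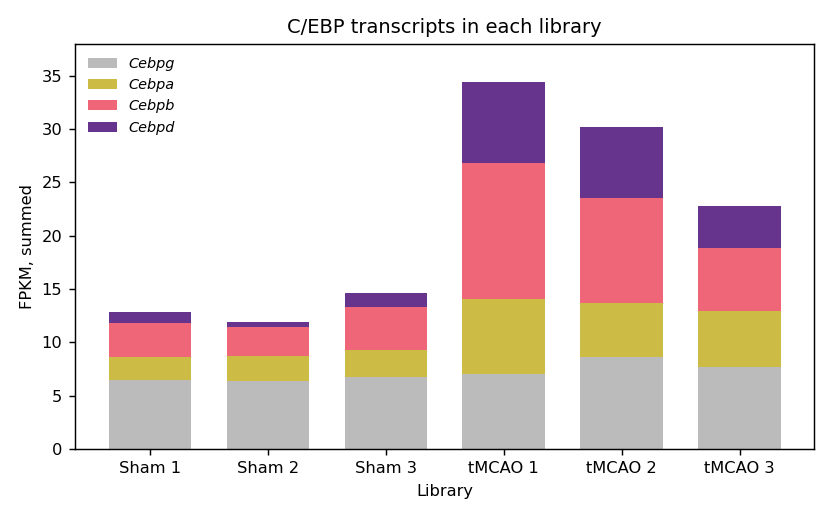
FPKM of Cebpg, Cebpa, Cebpb and Cebpd stacked for each of the 6 libraries. The grey Cebpg part is of like height in all bars, between 6.36 and 8.63 FPKM, while the other parts are taller in every tMCAO bar than in any Sham bar.

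Ratios within a library do not depend on how libraries were scaled. The ratio of Cebpd to Cebpb was 0.341, 0.182 and 0.344 in Sham 1, 2 and 3 and 0.600, 0.682 and 0.665 in tMCAO 1, 2 and 3. The groups did not overlap (mean log2 ratio -1.85 ± 0.527 in Sham and -0.63 ± 0.097 in tMCAO, difference 1.22, exact permutation p = 0.10, the smallest 3 against 3 can give), and with a pseudocount of 1 the difference was 0.58. Cebpd was thus higher relative to Cebpb in every tMCAO library. The ratio of Cebpb to Cebpa overlapped between the groups, from 1.18 to 1.61 in Sham and from 1.12 to 1.95 in tMCAO (difference of the log2 ratio 0.17, exact permutation p = 0.60).

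Of the 16 genes of a list of C/EBP-linked acute phase and myeloid genes, 8 of the 15 in the comparison table were higher and none lower when no filter on low values was set, with a median log2 fold change of 1.33. With the filter 10 were tested, 7 were higher and none lower (9 and 1 at an unadjusted p under 0.05, 5 and 0 of 9 in voom). Their median of 2.16, against 0.00 over all tested genes, lies higher in part by construction, since 4 of the 10 (Ptx3, Csf3, Ccl2 and Cxcl1) had a Sham mean under 0.5 FPKM and passed the filter only through tMCAO. Socs3, the feedback inhibitor of cytokine signalling, rose from 0.863 ± 0.0508 to 10.02 ± 3.57 FPKM (log2 fold change 2.51, limma adjusted p = 0.00555). Serpina3n, an acute phase protease inhibitor, rose from 12.4 ± 2.64 to 76.8 ± 28.4 FPKM (2.48, limma adjusted p = 0.00987). Cd14, an endotoxin co-receptor, was at 0.774, 1.29 and 1.51 FPKM in Sham and 23.6, 33.9 and 7.14 FPKM in tMCAO (3.14, limma adjusted p = 0.0154). Ccl2, a monocyte chemokine, was at 0.0213 to 0.111 FPKM in Sham and 7.72, 9.87 and 2.02 FPKM in tMCAO (2.63, limma adjusted p = 0.0166). As with Cebpb and Cebpd, tMCAO 3 was the lowest tMCAO library in all 4. The list had 2, 2 and 1 genes called when Sham 1, 2 and 3 in turn were left out. It had 4 without tMCAO 1 and 9 with both Sham 2 and tMCAO 3 left out. Cd14 and Ccl2 lost their calls without any 1 of the Sham libraries (adjusted p from 0.053 to 0.076) and Serpina3n without Sham 3 (0.051). The gene lower at an unadjusted p under 0.05 was Csf3r, at 2.17 ± 0.302 FPKM in Sham and 1.45 ± 0.437 FPKM in tMCAO (-0.385, limma adjusted p = 0.112).

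Tribbles pseudokinases, some of which target C/EBP proteins for degradation, were listed together with leucine zipper factors and the myeloid factor Spi1. This list had 3 of 8 genes higher and none lower without the filter, with a median log2 fold change of 0.37. With the filter the counts were 2 and 0 of 7 (4 and 0 at an unadjusted p under 0.05, 1 and 0 of 6 in voom), and 2 of the 7, Atf3 and Trib3, passed it only through tMCAO. Trib1 rose from 2.62 ± 0.359 to 6.11 ± 1.09 FPKM (0.97, limma adjusted p = 0.0119). Atf3, a stress-induced leucine zipper factor, was at 0.377, 0.236 and 0.172 FPKM in Sham and 15.1, 8.15 and 1.42 FPKM in tMCAO (2.50, limma adjusted p = 0.0400). Trib1 lost its call without Sham 1 or without Sham 3 (adjusted p = 0.055 in both). Atf3 kept its call only without tMCAO 3, with an adjusted p up to 0.13 in the other leave-one-out fits and 0.095 on the recovered reads. The list had 0 to 5 genes called across the leave-one-out fits, 0 without Sham 1 or Sham 3, 1 without Sham 2, tMCAO 1 or tMCAO 2, and 5 without tMCAO 3 or without both Sham 2 and tMCAO 3.

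Cell markers moved along with some of these genes. Neutrophil markers (9 genes) summed to 0.196, 0.387 and 0.551 FPKM in Sham 1, 2 and 3 and to 34.4, 3.87 and 1.91 FPKM in tMCAO 1, 2 and 3, with Ly6g and Cxcr2 at 0 in every Sham library. In tMCAO 1, 2 and 3 Cxcr2 was at 0.527, 0.0841 and 0.0207 FPKM and Ly6g at 0.0742, 0 and 0.0167 FPKM. Neither of the 2 tested neutrophil genes passed, 1 having an unadjusted p under 0.05 (S100a9 from 0.135 to 6.33 FPKM, limma adjusted p = 0.10; S100a8 from 0.0419 to 3.02 FPKM, limma adjusted p = 0.145). tMCAO 1, where these markers were highest, also had the highest Cebpa, Cebpb and Cebpd: without it their log2 fold changes were 0.89, 1.02 and 1.66 (limma adjusted p = 0.017, 0.050 and 0.032). Microglia markers went the other way, from 106 to 124 FPKM summed in Sham to 65.8 to 84.4 FPKM in tMCAO, with 6 of 10 lower and none higher (7 and 0 at an unadjusted p under 0.05). Csf1r, the receptor for the growth factor CSF1, did not pass (15.5 to 13.3 FPKM, limma adjusted p = 0.141). Monocyte and macrophage markers summed to 3.53 to 4.62 FPKM in Sham and 6.91 to 7.90 FPKM in tMCAO, with 1 of 5 tested genes higher. That gene, Lyve1, rose from 0.318 ± 0.166 to 1.31 ± 0.547 FPKM (limma adjusted p = 0.0316) and passed the filter only through tMCAO. From the same list, Ccr2 (0.0545 and 0.0697 FPKM in Sham and tMCAO) and Ly6c2 (0.00839 and 0.00846 FPKM) lay under the filter. Chil3 gave 1.86 FPKM of the sum in tMCAO 1, against 0.105 and 0.0290 FPKM in tMCAO 2 and 3. In a bulk sample, fewer cells of a type and less RNA per cell cannot be told apart, and the part of these cells in the C/EBP result was not tested.

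Klf2 and Klf4, the pair known from endothelium, both rose. Klf2 (ENSMUSG00000055148, chr8:72319033-72321656, plus strand) was at 1.89, 1.98 and 3.25 FPKM in Sham 1, 2 and 3 and at 4.59, 6.27 and 5.09 FPKM in tMCAO 1, 2 and 3. The groups did not overlap, although Sham 3 stood above the other Sham libraries. The mean rose from 2.37 ± 0.758 to 5.32 ± 0.865 FPKM (SD, n = 3), or 0.92 ± 0.17 (SE) in log2 fold change (limma adjusted p = 0.0214). The call was lost without Sham 1 (0.82, adjusted p = 0.081) or Sham 2 (0.84, adjusted p = 0.073), and with both Sham 2 and tMCAO 3 left out (0.86, adjusted p = 0.063).

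Klf4 (ENSMUSG00000003032, chr4:55527143-55532466, minus strand) was at 1.26, 1.15 and 1.97 FPKM in Sham 1, 2 and 3 and at 3.46, 3.03 and 3.10 FPKM in tMCAO 1, 2 and 3. Sham 3 was again the highest Sham library, and the lowest tMCAO value was 1.54 times its level. The mean rose from 1.46 ± 0.442 to 3.19 ± 0.234 FPKM (SD, n = 3), or 0.78 ± 0.14 (SE) in log2 fold change (limma adjusted p = 0.0179). The call was lost without Sham 1 (0.73, adjusted p = 0.077) and without Sham 2 (0.69, adjusted p = 0.061). The ratio of Klf4 to Klf2 ran from 0.582 to 0.667 in Sham and from 0.482 to 0.754 in tMCAO and overlapped (difference of the log2 ratio -0.03, exact permutation p = 1).

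Of 10 endothelial genes described as downstream of Klf2 and Klf4, 4 were higher and 1 lower without the filter, with a median log2 fold change of 0.48. With the filter 8 were tested, 5 were higher and 1 lower, and 1 of the 8 passed it only through tMCAO. Thbd, the anticoagulant thrombomodulin, which Klf2 is known to induce, rose from 4.72 ± 0.137 to 8.46 ± 1.98 FPKM (0.70, limma adjusted p = 0.0305). F3, tissue factor, which Klf2 is known to repress, rose from 15.8 ± 0.621 to 24.2 ± 1.87 FPKM (0.58, limma adjusted p = 0.0109). Tek, the angiopoietin receptor, fell from 3.22 ± 0.160 to 0.822 ± 0.279 FPKM (-1.22, limma adjusted p = 0.00622). The list had 1, 2 and 1 genes called when Sham 1, 2 and 3 in turn were left out. It had 3 without tMCAO 1, 2 without tMCAO 2 and 6 with both Sham 2 and tMCAO 3 left out. Thbd kept its call only without tMCAO 3 (adjusted p from 0.067 to 0.11 in the other leave-one-out fits), and F3 lost it without Sham 1 (adjusted p = 0.054) or Sham 3 (0.065).

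The 12 endothelial cell markers themselves summed to 60.7 to 64.8 FPKM in Sham and to 57.2, 78.0 and 58.7 FPKM in tMCAO 1, 2 and 3, with 2 higher, 3 lower and a median log2 fold change of -0.02. The markers thus moved both ways. Cdh5 (log2 fold change 0.92) and Esam (0.50) were higher, and Slco1a4 (-1.27), Kdr (-0.58) and Tie1 (-0.55) were lower. Klf2 was highest in tMCAO 2, the library with the highest endothelial sum, whereas Klf4 was highest in tMCAO 1. Of the most abundant markers, Cldn5, a tight junction protein, was at 12.8 ± 0.803 and 15.7 ± 1.02 FPKM (limma adjusted p = 0.0545) and Ly6c1 at 16.4 ± 0.370 and 16.8 ± 6.55 FPKM (limma adjusted p = 0.95). The part of endothelial RNA in the Klf2 and Klf4 result was not tested.

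Klf6 (ENSMUSG00000000078, chr13:5861482-5870394, plus strand), a factor induced in many tissues by injury, was at 8.92, 10.3 and 11.9 FPKM in Sham 1, 2 and 3 and at 18.1, 15.8 and 15.3 FPKM in tMCAO 1, 2 and 3. All tMCAO libraries were above all Sham libraries, by at least 1.29 times. The mean rose from 10.4 ± 1.47 to 16.4 ± 1.49 FPKM (SD, n = 3), or 0.62 ± 0.11 (SE) in log2 fold change (limma adjusted p = 0.0204), over 5805 reads in Sham and 12877 in tMCAO. The call was lost without Sham 1, 2 or 3 (0.53, 0.62 and 0.71, adjusted p = 0.076, 0.068 and 0.058).

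Klf10 did not differ detectably between the groups. The gene (ENSMUSG00000037465, chr15:38291463-38300706, minus strand) was at 7.00, 6.22 and 5.70 FPKM in Sham 1, 2 and 3 and at 9.32, 4.98 and 5.71 FPKM in tMCAO 1, 2 and 3. tMCAO 1 was the highest of all 6 libraries and tMCAO 2 the lowest, so the groups overlapped. The log2 fold change was 0.03 with a 95% interval from -0.44 to 0.51 (limma adjusted p = 0.921, exact permutation p = 0.90), and its sign turned without Sham 3 (-0.03), without tMCAO 1 (-0.20) and when libraries were scaled to an equal sum (-0.03). The list of TGF-beta early response genes, the group Klf10 is named with, also holds genes of TGF-beta ligands and receptors. It had 3 of 13 tested genes higher and none lower (6 and 0 at an unadjusted p under 0.05, 2 and 0 in voom). The other 10 did not pass, and the median log2 fold change was 0.12. Id2 rose from 34.6 ± 2.62 to 48.5 ± 4.21 FPKM (0.48, limma adjusted p = 0.0223), Tgif1 from 0.312 ± 0.0305 to 0.834 ± 0.229 FPKM (0.48, limma adjusted p = 0.0325) and Id1 from 8.78 ± 1.19 to 14.4 ± 3.22 FPKM (0.64, limma adjusted p = 0.0439). Tgif1 passed the filter only through tMCAO, and the call of Id1 was lost under all 3 rescalings and on the recovered reads (adjusted p up to 0.064). None of the 13 passed without Sham 1, Sham 2, Sham 3 or tMCAO 1, and 5 passed without tMCAO 3 or without both Sham 2 and tMCAO 3.

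Klf15 and Klf9 are both induced by glucocorticoids in several tissues. Klf15 (ENSMUSG00000030087, chr6:90462576-90475238, plus strand), a regulator of amino acid and glucose metabolism, was at 7.89, 6.51 and 8.06 FPKM in Sham 1, 2 and 3 and at 9.88, 12.4 and 10.97 FPKM in tMCAO 1, 2 and 3. The groups did not overlap, and tMCAO 1, the highest library for 6 of the 10 members within its group, was here the lowest. The mean rose from 7.49 ± 0.848 to 11.1 ± 1.24 FPKM (SD, n = 3), or 0.51 ± 0.11 (SE) in log2 fold change (limma adjusted p = 0.0291). Of the 8 calls it was the only one lost under any of the 3 rescalings run: with libraries scaled to an equal sum it was 0.44 with adjusted p = 0.058. It was also lost without Sham 1, 2 or 3 (adjusted p = 0.089, 0.086 and 0.086), when tMCAO 2 was left out (0.060), and with both Sham 2 and tMCAO 3 left out (0.069).

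Klf9 (ENSMUSG00000033863, chr19:23141226-23168134, plus strand), an immediate target of the glucocorticoid and thyroid hormone receptors in neurons, was the most abundant of the 10, at 46.3, 54.4 and 48.2 FPKM in Sham 1, 2 and 3 and 68.8, 49.3 and 75.5 FPKM in tMCAO 1, 2 and 3. tMCAO 1 and 3 were above all Sham libraries and tMCAO 2 was not. The means were 49.6 ± 4.27 and 64.5 ± 13.7 FPKM (SD, n = 3), with a log2 fold change of 0.35 and a 95% interval from -0.03 to 0.73 (limma adjusted p = 0.16, exact permutation p = 0.20). Without tMCAO 2 the difference passed (0.53, limma adjusted p = 0.034), the only 1 of the 6 leave-one-out fits in which it did. In the others the limma adjusted p reached 0.34. With both Sham 2 and tMCAO 3 left out, the log2 fold change was 0.298 (limma adjusted p = 0.24). The tMCAO library lowest in Klf9 was the highest in Klf15: the ratio of Klf9 to Klf15 was 5.86, 8.35 and 5.98 in Sham 1, 2 and 3 and 6.96, 3.98 and 6.89 in tMCAO 1, 2 and 3, and overlapped (difference of the log2 ratio -0.21, exact permutation p = 0.60).

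Glucocorticoid-responsive genes had 8 of 13 tested genes higher and none lower, with a median log2 fold change of 1.01. At an unadjusted p under 0.05 the counts were 9 and 1, in voom 5 and 0 of 9, and 1 gene was lower under each of the 3 rescalings. The p21 gene Cdkn1a, which halts the cell cycle, went up from 8.29 ± 1.72 to 83.1 ± 23.2 FPKM (3.16, limma adjusted p = 0.00225), and Sgk1, a kinase induced by corticosteroids, from 11.3 ± 0.788 to 48.95 ± 9.20 FPKM (2.02, limma adjusted p = 0.00225). Ddit4, an inhibitor of mTOR signalling, rose from 11.4 ± 0.195 to 36.6 ± 5.85 FPKM (1.59, limma adjusted p = 0.00255), and Fkbp5, a co-chaperone of the glucocorticoid receptor, from 7.47 ± 1.01 to 21.1 ± 2.90 FPKM (1.38, limma adjusted p = 0.00532). These 4 passed in all 6 leave-one-out fits, and the list had between 5 (without Sham 1 or Sham 3) and 10 genes called, and 8 with both Sham 2 and tMCAO 3 left out. Several of these genes also answer to other stresses, Cdkn1a to DNA damage for one. With all 6 libraries, 5 of the 13 did not pass. Among them were Tsc22d3 (log2 fold change 0.295, limma adjusted p = 0.208) and Zbtb16 (0.194, limma adjusted p = 0.404), and both overlapped between the groups. Nr3c1, below Sham in every tMCAO library, was the gene lower at an unadjusted p under 0.05 (-0.236, limma adjusted p = 0.0704). Of 8 Klf15-linked metabolic genes, 1 was higher and 1 lower (2 and 5 at an unadjusted p under 0.05, 1 and 1 of 6 in voom), with a median of -0.35. The 1 that was higher passed the filter only through tMCAO: the glucose transporter gene Slc2a4 rose from 0.319 ± 0.0956 to 1.16 ± 0.323 FPKM (0.70, limma adjusted p = 0.0196), and Acss1, a mitochondrial acetyl-CoA synthetase, fell from 6.25 ± 0.282 to 3.61 ± 0.631 FPKM (-0.66, limma adjusted p = 0.0165). Both lost their calls without any 1 Sham library (adjusted p from 0.055 to 0.080), when none of the 8 passed, and 4 of the 8 passed without tMCAO 2.

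Klf7, a neuronal factor, was the only member that fell. The gene (ENSMUSG00000025959, chr1:64029447-64122282, minus strand) was at 7.49, 8.15 and 8.80 FPKM in Sham 1, 2 and 3 and at 5.81, 5.85 and 5.88 FPKM in tMCAO 1, 2 and 3. The tMCAO libraries lay within 1.01 times of each other, all below Sham 1, the lowest Sham library. The mean fell from 8.15 ± 0.659 to 5.85 ± 0.0392 FPKM (SD, n = 3), or -0.42 ± 0.08 (SE) in log2 fold change (limma adjusted p = 0.021), and 92.0% of tested genes had a larger one. Gm26649 on the opposite strand shares 39.4% of the Klf7 exon length and was at 10.5 ± 1.18 and 8.27 ± 0.175 FPKM (-0.31, limma adjusted p = 0.0601), and reads of the shared stretch cannot be assigned to either gene here. The call was lost without Sham 1, 2 or 3 (-0.47, -0.41 and -0.37, adjusted p = 0.069, 0.075 and 0.096) and without both Sham 2 and tMCAO 3 (-0.42, adjusted p = 0.055). Klf7 is a long transcript, with 8131 bases of exon, and protein-coding genes of its length class had a median log2 fold change of -0.04, against 0.09 in the class of the short Cebpb; the part of length in these results was not tested.

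**Figure D3:**
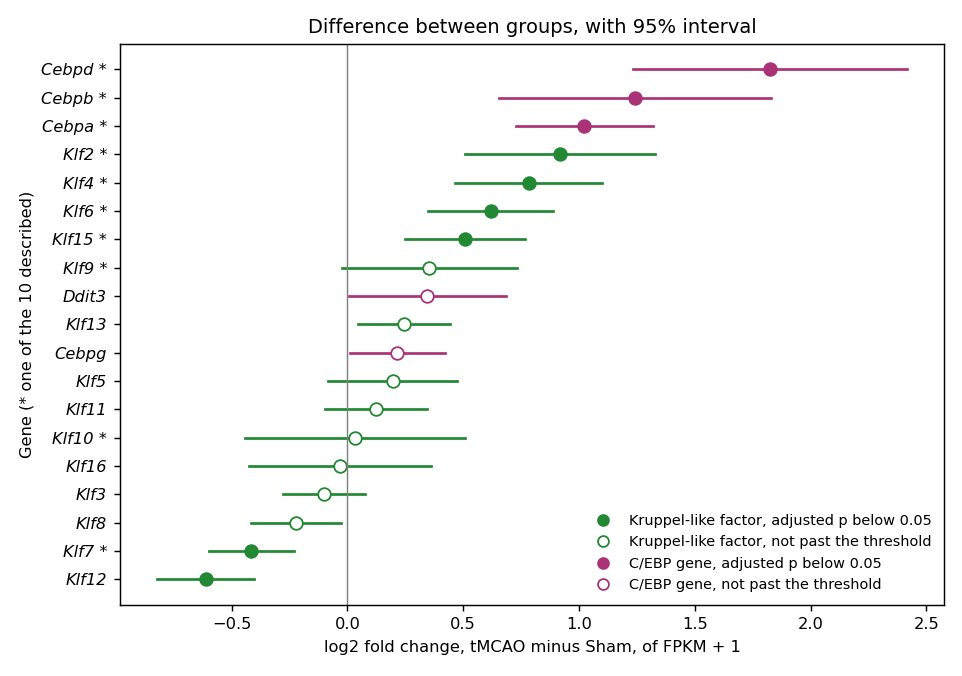
log2 fold change (tMCAO minus Sham, of FPKM + 1) with its 95% interval for the tested Kruppel-like (green) and C/EBP (purple) genes, in order of size; filled points passed the adjusted p threshold and stars mark the 10 members. Cebpd (1.82), Cebpb (1.24) and Cebpa (1.02) stand at the upper end, and Klf12 (-0.61) and Klf7 (-0.42) at the lower end.

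The rest of the family gives the setting for the 7 Kruppel-like members. Of 10 other Kruppel-like factors 7 were tested. None was higher and 1 was lower in limma as in voom (1 and 2 at an unadjusted p under 0.05). Their median log2 fold change was -0.03, and its sign turned without the filter (0.05, over 9 genes) and with library weights (0.01). Klf12, a repressor, was at 4.74, 4.85 and 5.70 FPKM in Sham 1, 2 and 3 and at 2.87, 2.95 and 3.12 FPKM in tMCAO 1, 2 and 3. The groups were apart, with a log2 fold change of -0.61 (limma adjusted p = 0.0133), and the call was lost without Sham 1 (adjusted p = 0.056) or Sham 3 (0.067). Klf12, like Klf7, is a long transcript, with 6985 bases of exon. Of all 17 Kruppel-like genes 14 were tested, 4 were higher and 2 lower, with a median log2 fold change of 0.16. The sum over all 17 was 132 ± 7.17 FPKM in Sham and 161 ± 16.3 FPKM in tMCAO. Klf9 made up 37.5% and 39.8% of it. The related Sp factors, which bind the same GC boxes, had none of 7 tested genes called in limma, nor any of 5 in voom, while 2 were lower at an unadjusted p under 0.05. Their median was -0.12. Sp3 had a log2 fold change of 0.11 (limma adjusted p = 0.29) and Sp2 one of -0.01 (limma adjusted p = 0.98).

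**Figure D4:**
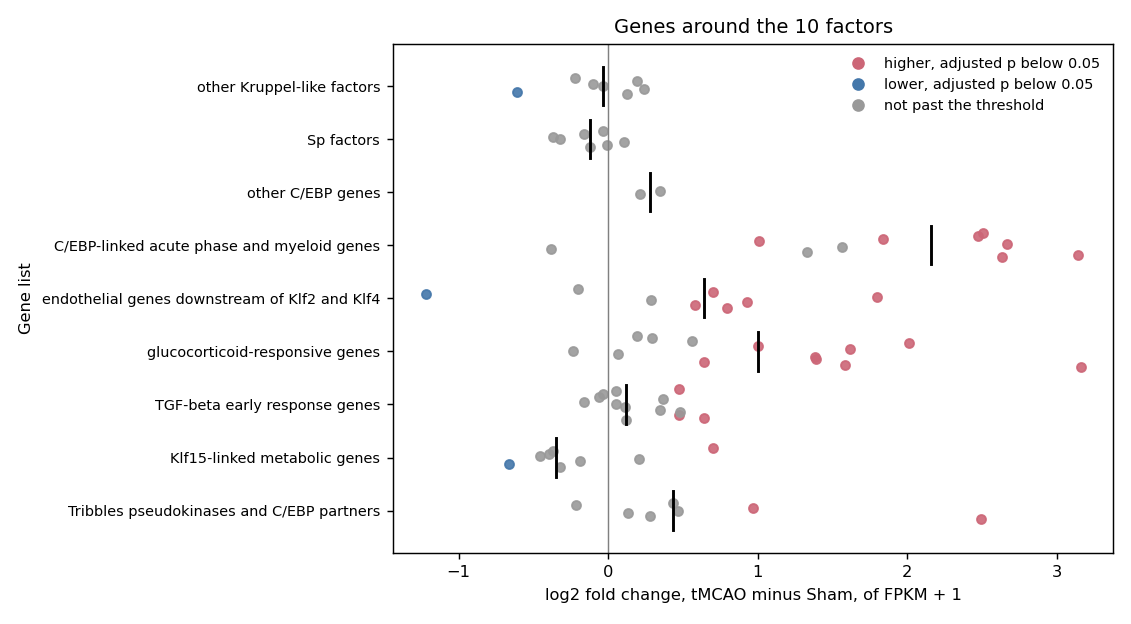
log2 fold change of every tested gene in each of the 9 lists around the factors, with a black bar at the list's median; red points were higher and blue points lower in tMCAO at adjusted p below 0.05. The C/EBP-linked genes (median 2.16) and the glucocorticoid-responsive genes (1.01) lie to the right, the first with 4 genes that passed the filter only through tMCAO and a median of 1.33 without the filter, while the other Kruppel-like factors (-0.03, or 0.05 without the filter) and Sp factors (-0.12) lie around 0.

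Within the groups, libraries were ordered alike for several members. Sham 3 was the highest Sham library for 8 of the 10, all but Klf9 and Klf10. tMCAO 1 was the highest tMCAO library for 6 of the 10 (Klf4, Klf6, Klf10, Cebpa, Cebpb and Cebpd). tMCAO 3 was the lowest for Klf6, Cebpb and Cebpd.

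**Figure D5:**
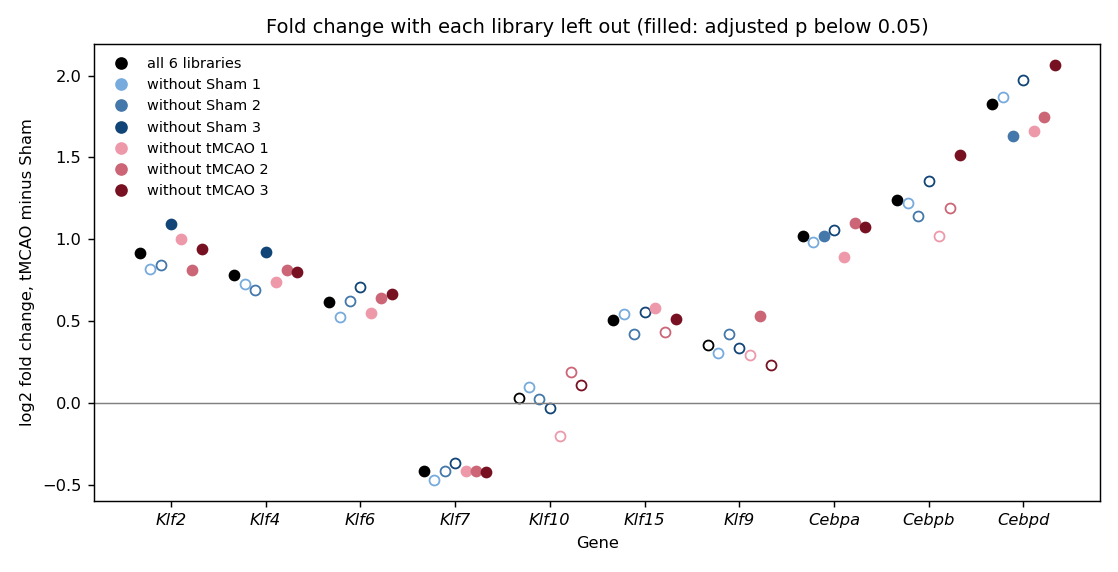
log2 fold change (tMCAO minus Sham) of each of the 10 members with all 6 libraries (black) and with each library left out in turn; filled points passed at adjusted p below 0.05. The points of the 8 called members stay on one side of 0, between 1.63 and 2.07 for Cebpd, and most open points are those with a Sham library left out.

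The genes whose profile over the 6 libraries came nearest to a member's were found by the root mean square difference of centred log2(FPKM + 1). For Klf6 the nearest was Dusp1, an immediate early phosphatase, at 8.74, 9.89 and 12.0 FPKM in Sham and 18.2, 16.1 and 14.9 FPKM in tMCAO (difference 0.0298, against a spread of 0.335 in Klf6 itself), followed by the pseudogene Rpl30-ps10 (0.0729) and Tpsg1 (0.0783). For Klf7 they were Setbp1 (0.0308), Tenm3 (0.0325) and Ablim1 (0.0360), and for Klf15 they were Bcl6 (0.0521), Btbd9 (0.0593) and Vegfd (0.0616). Cebpa was nearest to Mvp (0.0598), Gprc5a (0.0720) and Mfsd2a (0.0752). Cebpb lay nearest to Akap12 (0.0991), Sdc4 (0.103) and Rhoj (0.118), and Cebpd to Zfp36 (0.174), Lgals3 (0.176) and Flnc (0.178). Klf4 lay nearest to Fstl1 (0.0898), Smim27 (0.0989) and Stxbp3 (0.11), and Klf2 to Cp (0.155), Lrg1 (0.159) and Ifitm2 (0.164). These are likenesses over 6 libraries of 2 groups, which any pair of genes that differ by a like amount will share in part.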

How the data were processed

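RNA was measured by sequencing of oligo-dT-selected mRNA, with the SMARTER kit, per the labels' protocols. The deposited values are FPKM made by the authors on build mm10, per the submitters' processing notes. Aligner, counter and strand setting were not given in the sources used here. In addition, the authors' deposited table of the comparison holds a log2 fold change (Sham over tMCAO) with p-values, raw and adjusted, from a test that no source used here names. Titles match the Sham columns. The tMCAO columns carry only the group, so tMCAO 1 to 3 are column numbers.

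limma 3.58.1 in R 4.3.3 (lmFit, eBayes with a mean-variance trend, two-sided, Benjamini-Hochberg) was run on log2(FPKM + 1) for the 17561 genes of the comparison table with mean FPKM of at least 0.5. The pseudocount understates fold changes of low genes. A member's value and the 4 ratios between members were compared by exact two-sided permutation over 20 assignments. Whole reads were recovered from the FPKM with GENCODE M21 exon lengths for 16012 tested genes (91.2%, tolerance 1e-06); Klf9 has another length there. Exon coordinates and overlaps are from that annotation and promoters are from RefSeq. Recovered reads ranged from 35341820 to 60000991 per library.

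The members and gene lists were chosen with earlier results of these data known. Genes named are all members, the called genes of each list by smallest adjusted p, up to 4 (or, where none passed, the 2 most abundant), the 2 most abundant markers of cell types described, and the 3 nearest profiles to each called member; some genes this rule names are not reported here. Spidr, Tmem189, Gm45091 and Gm26649 were named for their overlap with members, and Cebpe, Ly6g and Cxcr2 for their low counts. Ptx3, Csf3, Csf3r, Cxcl1, Trib3, Spi1, C1ql2, Fibcd1, Lyve1, Ccr2, Ly6c2, Chil3, Tsc22d3, Zbtb16 and Nr3c1 were named after their values were seen. So were Cdh5, Esam, Slco1a4, Kdr and Tie1. Alternatives were another pseudocount and filter, 3 rescalings, eBayes without trend, library weights, the table of all genes, limma's voom on recovered reads, leaving out each library, and leaving out Sham 2 and tMCAO 3 together.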

Additional observations from a re-analysis of the deposited data

How the results depend on the processing

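Members called stayed at 8 (of 9 tested on recovered reads) under every processing alternative but scaling to an equal sum, where it was 7, and leaving out both Sham 2 and tMCAO 3, where it was 5. Over the 6 leave-one-out fits it ranged from 0 (without Sham 1) to 8 (without tMCAO 3), with 2 without Sham 2 or Sham 3. Genes called over all tested genes, 2847, ranged from 75 (without Sham 3) to 3896 (without tMCAO 3) and were 4913 with library weights; the unadjusted p of the 8 called members stayed at or under 0.0098 in these fits. The split of 1569 higher and 1278 lower genes became 1052 and 1596 with an equal sum and 1222 and 1648 with an equal upper quartile, with the median of all genes moving by at most 0.056 on the log2 scale. Klf10 turned sign with an equal sum (-0.031), an equal upper quartile (-0.015) and library weights (-0.14), and ranged from -0.20 to 0.19 over the leave-one-out fits. The difference of the Cebpd to Cebpb ratio was 0.58 with a pseudocount of 1.

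Counts in the gene lists under the same alternatives were chosen after seeing the data. With library weights they were 1 for Sp factors, 2 for other C/EBP genes, 5 for TGF-beta genes, and 4 each for Klf15-linked and Tribbles genes. Sp factors had 1 call with an equal sum and 1 with an equal upper quartile. On recovered reads the glucocorticoid list had 5 and the Tribbles list 1. Klf15-linked genes had 1 with a mean FPKM of at least 2 and 1 without both Sham 2 and tMCAO 3, when TGF-beta and Tribbles genes had 5 each. The leave-one-out ranges were 0 to 1 for other Kruppel-like factors, 0 to 1 for Sp factors, 0 to 1 for other C/EBP genes, 1 to 10 for C/EBP-linked genes, 1 to 7 for endothelial downstream genes, 5 to 10 for glucocorticoid genes, 0 to 5 for TGF-beta genes, 0 to 4 for Klf15-linked genes and 0 to 5 for Tribbles and partner genes. The cause of these changes was not tested. No paired analysis was possible because the tMCAO columns carry no number that the labels tie to a Sham sample. Among the members the fewest reads in a library were 77, for Cebpd in Sham 2.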
